A study of Mus musculus with 6 samples.

Results

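The cadherins and desmosome components described here are 10 genes that join epithelial cells to each other: Cdh1, Cdh3, Jup, Dsg2, Dsc2, Pkp1, Pkp2, Pkp3, Dsp and Perp. They were taken by symbol, each as the single array feature annotated to that gene alone, and all 10 were measured among 19938 genes. Their expression was read in pools of bladders from mouse embryos at stage E14.5, in 3 pools labelled Klf5 ∆/∆, called Klf5-deleted here, and in 3 control pools labelled Klf5+/+ShhGfpCre+, with 2 bladders in each pool and 1 array per pool. Klf5 is a Kruppel-like transcription factor with zinc fingers, active in many epithelia. ShhGfpCre is an allele that places the Cre recombinase, fused to a fluorescent protein, under control of the Shh gene, which is active in the epithelium that lines the bladder. The labels do not say which Cre made the deletion, nor whether the Klf5-deleted embryos carry ShhGfpCre, nor how litters were spread over the pools, so the spread between pools may be partly technical.

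Epithelial cells hold together through adherens junctions and desmosomes. In both, cadherins reach across the gap between cells and bind cadherins of the neighbour, and their tails bind armadillo-repeat proteins inside the cell. Adherens junctions use classical cadherins (E-cadherin from Cdh1, P-cadherin from Cdh3) and link to actin through catenins. Desmosomes use desmogleins and desmocollins, and link to keratin filaments through plakoglobin (Jup), plakophilins (Pkp1 to Pkp3) and desmoplakin (Dsp). In the urothelium, the layered epithelium of the bladder, these junctions hold together basal, intermediate and surface cells.

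Values are log2 expression, so a difference of -1 is a halving of signal. Klf5 itself, the targeted gene, read 10.12, 10.34 and 10.23 on the Klf5-deleted arrays, against 10.84, 10.63 and 10.97 on the control arrays. Its difference was -0.59 (SE 0.10, limma adjusted p = 0.0381). The groups did not overlap, but Klf5 missed the threshold with arrays centred on their medians (0.061) or on housekeeping genes (0.0559), and in 5 of the 6 fits with an array removed (0.0847 to 0.156), all but the one without control 2 (0.0167). Control 2 stood apart from its own group: it differed 2-fold or more from control 1 at 268 genes and from control 3 at 240, against 41 between control 1 and control 3. The RNA came from whole bladders, although one label says urothelium: the smooth muscle gene Acta2 read 13.97 to 14.05 on the Klf5-deleted arrays and 14.07 to 14.16 on the control arrays. In such bulk RNA, fewer epithelial cells and less RNA per epithelial cell cannot be told apart.

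Of the 10 genes, 3 fell in Klf5-deleted bladders and none rose: Cdh1, Perp and Jup passed an adjusted p of 0.05 (limma, adjusted over all 19938 genes), and the other 7 did not. Over all genes 1.98% passed in either direction, and 1.59% passed as falls. All 10 genes had a lower mean in Klf5-deleted bladders, where 53.5% of all genes did. Their median log2 difference was -0.391, against -0.0099 over all genes. For 7 of the 10, every Klf5-deleted array lay below every control array, which was so for 11.8% of all genes. The 10 genes were chosen with earlier results of these data known, so their counts are not independent of these data. The 3 genes whose groups overlapped were Cdh3, Dsc2 and Pkp1.

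**Figure D1:**
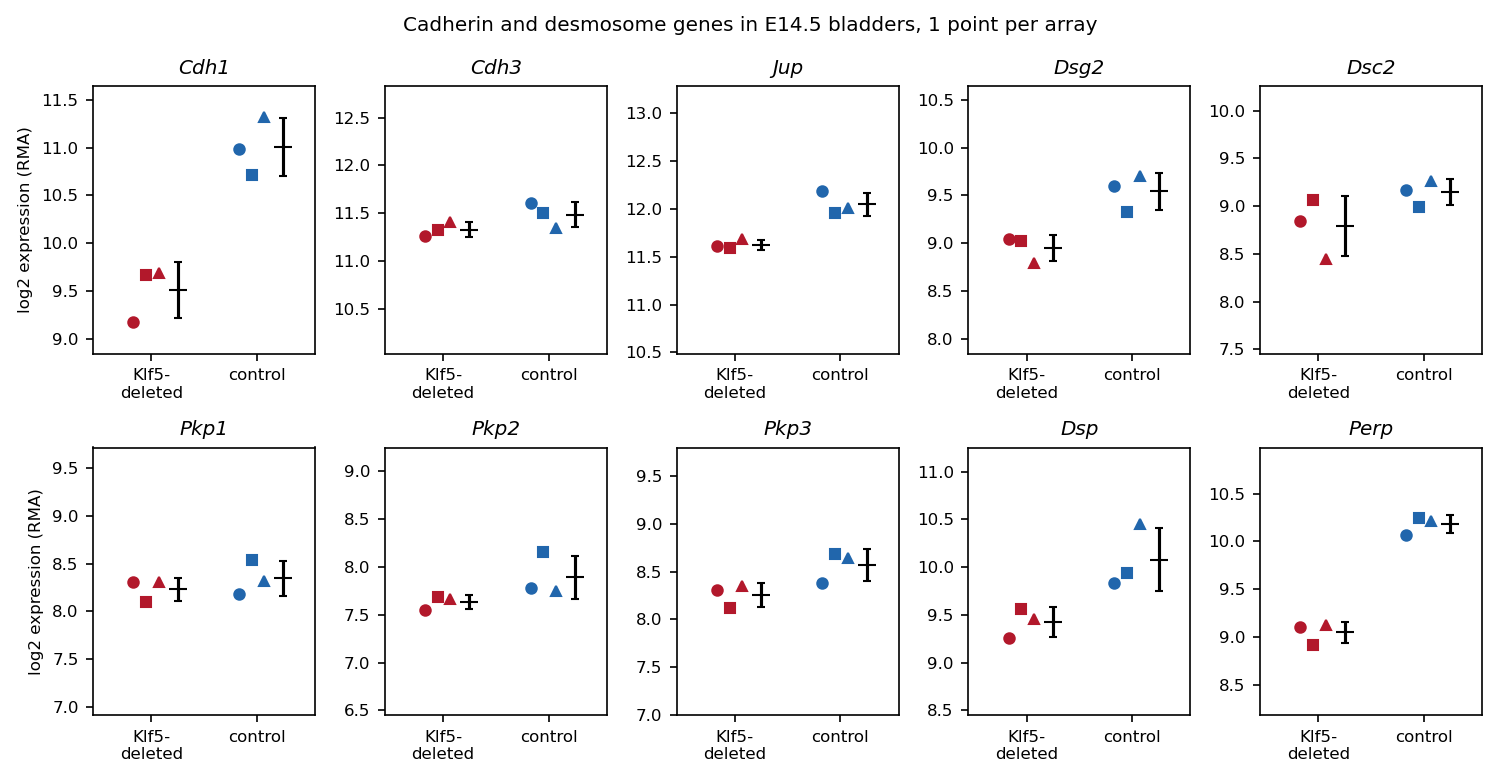
Log2 expression of the 10 genes on each array (y axis, RMA values; every panel spans the same range), with Klf5-deleted arrays in red at the left and control arrays in blue at the right; circles, squares and triangles are pools 1, 2 and 3, and the black bar is the mean ± SD of 3 arrays. The groups stand farthest apart for Cdh1 and Perp, and overlap for Cdh3, Dsc2 and Pkp1.

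The classical cadherins of the adherens junction had unlike differences. Cdh1 codes for E-cadherin, the adherens junction cadherin found across epithelia. It read 9.17, 9.67 and 9.69 on the Klf5-deleted arrays and 10.98, 10.71 and 11.32 on the control arrays. The lowest control array was 1 log2 unit or more above every Klf5-deleted array, and within the Klf5-deleted group array 1 was the low one. Cdh1 was 2.82-fold lower (log2 difference -1.50, SE 0.19, 95% confidence interval -1.94 to -1.06, limma adjusted p = 0.0103), the 53rd largest fall of 19938 genes. Cdh1 missed the threshold only when control 1 was left out (-1.51, limma adjusted p = 0.053).

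Cdh3 codes for P-cadherin, a classical cadherin of basal cell layers, and is the next protein-coding gene to Cdh1 in the RefSeq gene order. It read 11.26, 11.32 and 11.41 on the Klf5-deleted arrays and 11.61, 11.50 and 11.35 on the control arrays. The groups overlapped, because control 3 lay below Klf5-deleted 3. Its difference was -0.16 (SE 0.09, interval -0.36 to 0.04, limma adjusted p = 0.469). Taken within each array, Cdh1 relative to Cdh3 was 2.53-fold lower in Klf5-deleted bladders, a log2 difference of -1.34, and the groups did not overlap. An exact two-sided permutation test of this difference gave p = 0.1, the smallest that 3 arrays against 3 allow. It was 1 of 5 such gene pairs compared, and Benjamini-Hochberg adjustment over the 5 left p at 0.1. Each of the 5 pairs set a gene that passed against a gene that did not. A relative fall is thus largely built into the choice of pairs.

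The catenin genes Ctnnb1, Ctnna1 and Ctnnd1 did not pass, whereas the related genes Jup and Ctnnd2, described below, passed as falls. Ctnnb1 (β-catenin) differed by 0.02 (SE 0.06, interval -0.13 to 0.16), Ctnna1 (α-catenin) by -0.01 (SE 0.06) and Ctnnd1 (p120-catenin) by 0.04 (SE 0.07), and their limma adjusted p-values lay between 0.874 and 0.951. The intervals of all 3 leave room for changes of no more than about 0.21 on the log2 scale in the bulk RNA. Catenin levels of the epithelium alone were not measured, so these bounds do not cover them. Each of the 3 changed sign in some alternative setting, at a size under 0.05.

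Jup codes for plakoglobin, the relative of β-catenin that serves both kinds of junction. It read 11.61, 11.59 and 11.69 on the Klf5-deleted arrays and 12.19, 11.96 and 12.01 on the control arrays. The groups did not overlap, and the values within the Klf5-deleted group lay close together. Jup was 1.34-fold lower (log2 difference -0.43, SE 0.08, limma adjusted p = 0.0454). The call lies near the threshold: Jup missed the threshold in all 6 fits with an array removed, where the adjusted p ran from 0.0526 to 0.174 at differences of -0.47 to -0.36. With each array centred on its median over all genes the adjusted p was 0.0694, and with centring on housekeeping genes it was 0.0700. Relative to Ctnnb1 within each array, Jup was 1.36-fold lower without overlap between the groups (exact two-sided permutation p = 0.1, the smallest possible). Ctnnb1 differed by 0.02, so this relative fall largely repeats that of Jup itself.

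The desmosomal cadherins among the 10 did not pass. Dsg2 codes for desmoglein 2, the desmoglein found in simple epithelia and in heart. It read 9.04, 9.02 and 8.79 on the Klf5-deleted arrays and 9.60, 9.33 and 9.70 on the control arrays, so the groups did not overlap. Its difference was -0.59 (SE 0.12, interval -0.87 to -0.32), and its adjusted p of 0.0545 by limma fell just short. Leaving out control 2, the control with the lowest Dsg2 value, gave -0.70 and an adjusted p of 0.0204. In 3 further settings the adjusted p lay between 0.0359 and 0.0446. These left out dim genes, weighted the arrays or let the variance prior follow the mean. In all, Dsg2 passed in 4 of the 13 alternative settings, and in 1 of the 6 fits with an array removed. Its limma adjusted p was 0.0798 with arrays centred on their medians and 0.0679 with centring on housekeeping genes. It was 0.165 with the replicate number as a block and 0.188 without control 1.

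Dsc2 codes for desmocollin 2, the partner cadherin found in most desmosomes. It read 8.85, 9.07 and 8.45 on the Klf5-deleted arrays and 9.17, 8.995 and 9.27 on the control arrays. Klf5-deleted 2 lay above control 2, and Klf5-deleted 3 stood lowest. The difference was -0.36 (SE 0.16, interval -0.72 to 0.01, limma adjusted p = 0.357), and it was -0.19 without Klf5-deleted 3. Dsg2 and Dsc2 belong to a cluster of 9 desmoglein and desmocollin genes in RefSeq, of which 7 had a feature of their own. None of the 7 passed, and Dsg2 was the only one whose groups did not overlap. Dsg3 and Dsc3, which code for cadherins of stratified epithelia, differed by -0.22 (SE 0.15) and 0.02 (SE 0.10). Dsg3 was highest on control 2, at 7.20, with the remaining 5 arrays between 6.57 and 6.69, and without control 2 its difference was -0.04.

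Among the plaque proteins, the 3 plakophilins did not pass. Plakophilins are armadillo proteins that strengthen the desmosomal plaque: Pkp1 is typical of stratified epithelia, Pkp2 of simple epithelia and heart, and Pkp3 is found in most epithelia. Pkp3 read 8.31, 8.12 and 8.35 on the Klf5-deleted arrays and 8.38, 8.68 and 8.64 on the control arrays. Its difference was -0.31 (SE 0.10, interval -0.55 to -0.07, limma adjusted p = 0.236). Pkp2 read 7.55, 7.69 and 7.66 on the Klf5-deleted arrays and 7.78, 8.15 and 7.75 on the control arrays. Its difference was -0.26 (SE 0.12, interval -0.53 to 0.01, limma adjusted p = 0.36). The groups of Pkp3 and of Pkp2 did not overlap, by margins of under 0.1. Pkp1 read 8.30, 8.09 and 8.30 on the Klf5-deleted arrays and 8.18, 8.54 and 8.32 on the control arrays, and its groups overlapped. Its difference was -0.11 (SE 0.11, limma adjusted p = 0.712).

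Control 2 had the highest value of Pkp1, Pkp2, Pkp3 and Perp. That array also had the most Tpbpa, a placental transcript, at 13.13, with the remaining 5 between 6.18 and 10.34. The 10.34 was on Klf5-deleted 2, which had the lowest Pkp1 (8.09), Pkp3 (8.12) and Perp (8.92) of the 6 arrays. The Pkp2 value of Klf5-deleted 2 (7.69) was the highest of its group. Without control 2 the difference of Pkp1 was -0.02, that of Pkp2 -0.13, that of Pkp3 -0.25 and that of Perp -1.09. Whether RNA of placental origin bears on these values was not tested.

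Desmoplakin, the protein of Dsp, ties the desmosomal plaque to keratin filaments. Dsp read 9.25, 9.56 and 9.46 on the Klf5-deleted arrays and 9.84, 9.94 and 10.45 on the control arrays. The groups did not overlap, and control 3 stood above the other controls. The difference was -0.65 (SE 0.16, interval -1.04 to -0.27, limma adjusted p = 0.117), and the SD of its controls was 0.33 (n = 3). Dsp did not pass in any of the 13 alternative settings, where its adjusted p ran from 0.0746 to 0.338. Without control 3 its difference was -0.47.

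Perp codes for a 4-pass membrane protein of desmosomes that is required for their assembly in mouse skin. Perp read 9.10, 8.92 and 9.12 on the Klf5-deleted arrays and 10.07, 10.25 and 10.21 on the control arrays. The groups lay nearly 1 log2 unit apart, with little spread inside either. Perp was 2.19-fold lower (log2 difference -1.13, SE 0.08, interval -1.33 to -0.93, limma adjusted p = 0.0014), the 112th largest fall of 19938 genes. Of the 10 genes it was the only one past the threshold in every one of the 13 alternative settings, with an adjusted p of at most 0.025 by limma. Relative to Cdh3 within each array Perp was 1.96-fold lower without overlap (exact two-sided permutation p = 0.1). Cdh3 had not passed, so this relative fall largely repeats that of Perp itself.

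**Figure D2:**
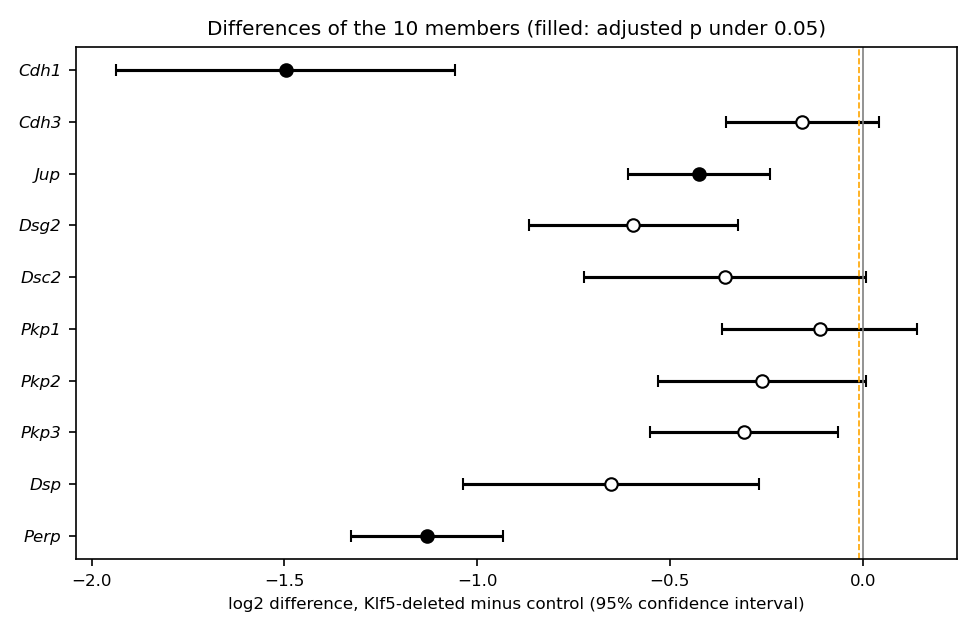
Log2 difference, Klf5-deleted minus control, of each gene (x axis) with its 95% confidence interval from limma; filled points passed an adjusted p of 0.05, the grey line is 0 and the dashed line is the median of all genes. Cdh1 at -1.50 and Perp at -1.13 had the largest falls, and the other genes lie between -0.65 and -0.11. The intervals of Perp and Dsp overlap, and Perp was not tested against Dsp.

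**Figure D3:**
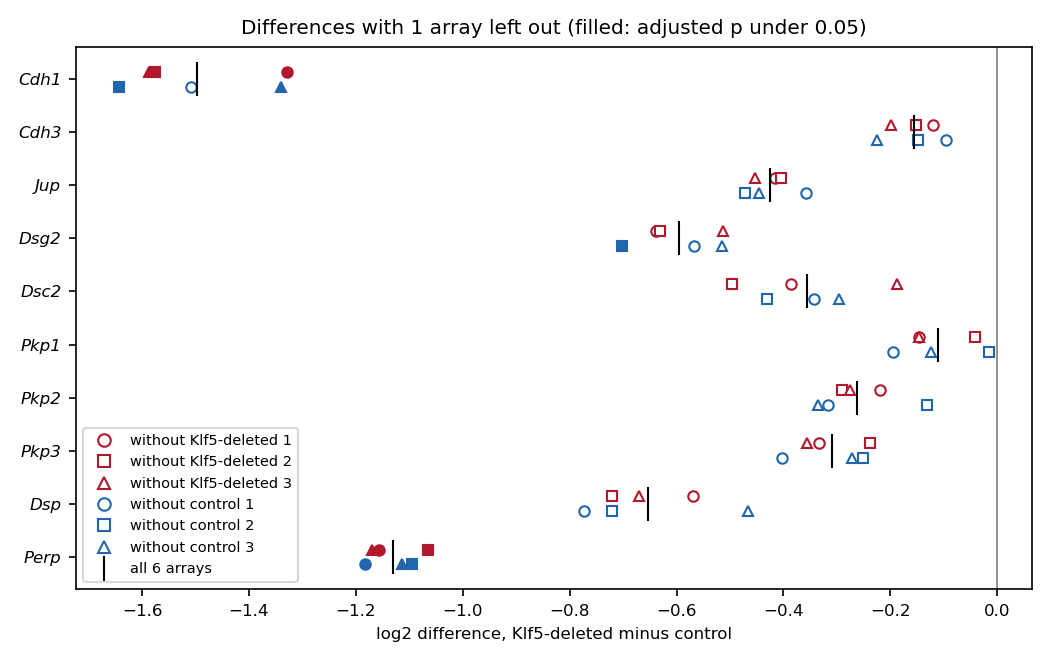
Log2 difference of each gene (x axis) when 1 of the 6 arrays was left out; red symbols leave out a Klf5-deleted array, blue symbols a control array, filled symbols passed an adjusted p of 0.05, and the black tick is the difference over all 6 arrays. Every difference stayed below 0; Perp passed in 6 of 6 fits, Cdh1 in 5, Dsg2 in 1 and Jup in none.

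Promoter windows are shown for Jup and Dsp, the 2 of the 10 genes matched in the RefSeq promoter table of build GRCm38.p6, to give the sequence next to the start of these plaque genes. Each window runs from 250 bases before to 50 bases after the gene's start and is printed 5′ to 3′ on the gene's strand. Capitals mark matches on either strand to CCNCNCCC, a GC-rich box of the kind that Kruppel-like factors bind, or to CAGGTG, an E-box of the kind bound by repressors such as Snail. The Jup window lies at chr11:100397741-100398040 on the minus strand, and the Dsp window at chr13:38151044-38151343 on the plus strand.
Jup: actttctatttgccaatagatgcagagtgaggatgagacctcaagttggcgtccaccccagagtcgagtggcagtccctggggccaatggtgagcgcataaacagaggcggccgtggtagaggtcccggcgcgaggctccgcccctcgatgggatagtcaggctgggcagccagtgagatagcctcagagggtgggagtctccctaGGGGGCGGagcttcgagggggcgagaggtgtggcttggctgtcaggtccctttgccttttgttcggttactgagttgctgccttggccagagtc
Dsp: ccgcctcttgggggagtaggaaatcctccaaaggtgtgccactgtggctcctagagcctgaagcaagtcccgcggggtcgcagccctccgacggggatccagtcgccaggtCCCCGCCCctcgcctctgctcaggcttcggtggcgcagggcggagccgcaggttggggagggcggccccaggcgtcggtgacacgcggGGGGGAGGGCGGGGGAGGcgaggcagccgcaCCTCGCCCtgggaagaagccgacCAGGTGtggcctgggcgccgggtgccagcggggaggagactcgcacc
The Jup window held 1 match to CCNCNCCC, on the opposite strand and starting at position -44, and no CAGGTG. The Dsp window held 5 matches to CCNCNCCC, of which several overlap one another, and 1 CAGGTG starting at position 4. No match to one motif overlapped a match to the other. Of all 32851 windows of this length, 49.5% held CCNCNCCC and 20.2% held CAGGTG. The GC content was 60.7% for Jup and 73.0% for Dsp.

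The rest of the desmosome was represented by 14 measured genes of 16 listed, of which 2 fell, none rose and 12 did not pass, with a median of -0.118. Both falls were in cytolinkers of the envelope beneath the membrane of stratified epithelia. Ppl (periplakin) read 8.08, 7.85 and 7.82 on the Klf5-deleted arrays and 8.93, 9.03 and 9.30 on the control arrays, a 2.25-fold fall (SE 0.12 on the log2 scale, limma adjusted p = 0.00447). Evpl (envoplakin) fell by 0.54 (SE 0.06, adjusted p = 0.00597). The large cytolinkers Plec and Dst did not pass, with differences of -0.25 (SE 0.06) and -0.02 (SE 0.12).

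Among 19 catenins, nectins and linkers of the adherens junction 2 fell, none rose and 17 did not pass, with a median of -0.038. Nectin4, an immunoglobulin-type adhesion protein of epithelia, read 8.20, 8.35 and 8.18 on the Klf5-deleted arrays and 9.27, 8.79 and 9.55 on the control arrays, a 1.94-fold fall (SE 0.18 on the log2 scale, limma adjusted p = 0.0442). Ctnnd2 (δ-catenin, best known from neurons) fell by 0.60 (SE 0.09, adjusted p = 0.0167). Neither passed without Klf5-deleted 1, 2 or 3, and Nectin4 also did not pass without control 1 or control 3, nor with arrays centred on their medians (adjusted p = 0.0558) or on housekeeping genes (adjusted p = 0.053).

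Of 20 other cadherins none fell, 1 rose and 19 did not pass, with a median of -0.032. Cdh2 (N-cadherin, of mesenchyme, nerve and muscle) was 0.25 higher (SE 0.09, limma adjusted p = 0.29) and did not pass. Cdh11, a cadherin of mesenchyme, differed by 0.12 (SE 0.06), Cdh5, the cadherin of endothelium, by -0.20 (SE 0.07), and Cdh16, a cadherin of kidney tubules, by 0.13 (SE 0.16). The single rise was in Cdh9, a type II cadherin, which read 6.39, 6.48 and 6.14 on the Klf5-deleted arrays and 5.89, 5.81 and 5.72 on the control arrays (0.53, SE 0.10, limma adjusted p = 0.0485). Cdh9 was dim on every array, and of the fits that left out 1 array it passed only in the one without Klf5-deleted 3.

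Hemidesmosomes, which anchor basal cells to the basement membrane, had 8 measured genes of 9 listed, of which 1 fell, none rose and 7 did not pass, with a median of -0.215. Itga3, an integrin subunit that binds laminin, fell by 0.40 (SE 0.07, limma adjusted p = 0.0483) and was past the threshold in none of the 6 fits with an array removed, nor with arrays centred on their medians (0.0672) or on housekeeping genes (0.0817). The hemidesmosome integrin subunits Itga6 and Itgb4 differed by -0.17 (SE 0.10) and -0.24 (SE 0.10) without passing.

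The keratins that desmosomes anchor divided into those that fell and those that did not pass. Of 9 measured keratins 5 fell and none rose, with a median of -1.43. Krt8 fell by 1.77 (SE 0.10, limma adjusted p = 0.00119), and its filament partner Krt18 and the other simple-epithelial keratin Krt7 fell by 1.52 and 1.51. The remaining falls, named after their values were seen, were Krt19 at -1.46 and Krt15 at -1.43. Krt5, a keratin of basal cells, read 10.49, 10.49 and 10.38 on the Klf5-deleted arrays and 9.85, 11.37 and 10.44 on the control arrays. Its difference was -0.10 (SE 0.33, limma adjusted p = 0.938). Its controls were spread widely around the Klf5-deleted values, with control 2 highest, and without control 2 its difference was 0.31.

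**Figure D4:**
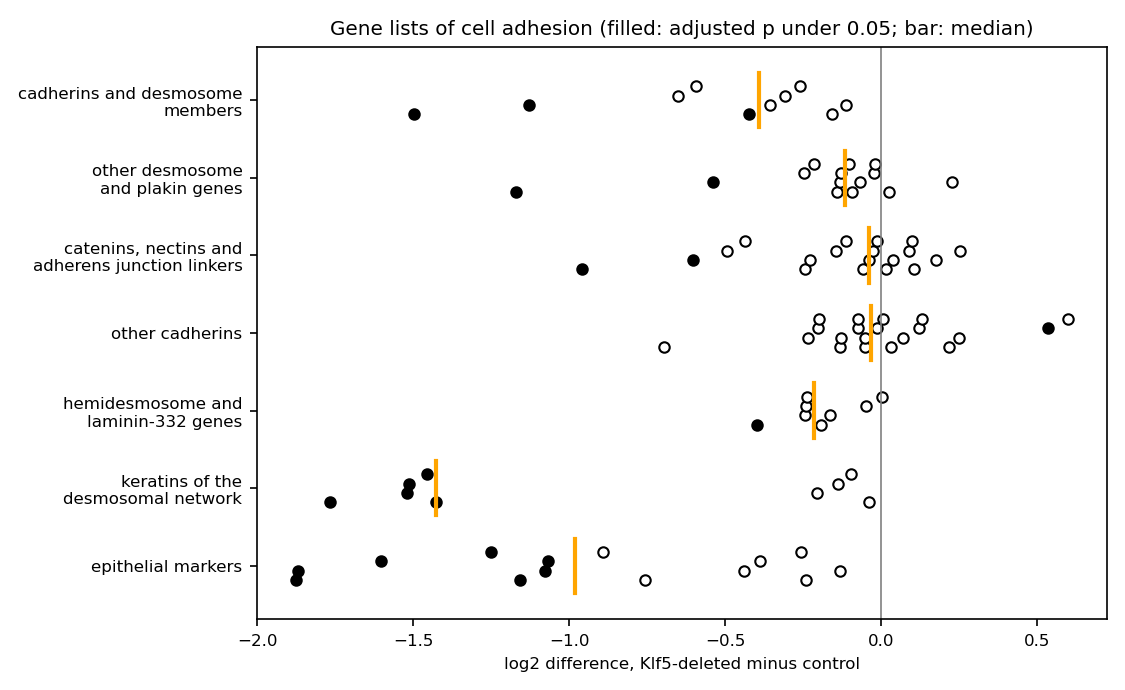
Log2 difference, Klf5-deleted minus control, of every measured gene (circles, x axis) in the lists of junction, anchor and epithelial genes; filled circles passed an adjusted p of 0.05 and the orange bar is the list median, with vertical offsets only to separate points. The medians run from -1.43 for keratins and -0.981 for epithelial markers to -0.032 for other cadherins, with the 10 cadherin and desmosome genes at -0.391.

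Markers of the epithelium also had lower means in Klf5-deleted bladders, to unlike degrees. Of 14 measured markers of 15 listed, 7 fell and none rose, with a median of -0.981, and their summed signal on the log2 scale ran from 12.5 to 12.8 on the Klf5-deleted arrays and from 13.4 to 13.8 on the control arrays. The markers were not lowered alike: Spint1 fell by 1.88 and Ehf fell by 1.87, while Epcam differed by -0.39 (SE 0.23, limma adjusted p = 0.521) and Trp63, the transcription factor of basal cells, by -0.24 (SE 0.11, adjusted p = 0.384). Epcam read 8.78, 9.71 and 8.98 on the Klf5-deleted arrays and 9.43, 9.43 and 9.78 on the control arrays, with overlap. Its difference was -0.20 without Klf5-deleted 1 and -0.67 without Klf5-deleted 2. Relative to Epcam within each array, Cdh1 was 2.16-fold lower and Perp 1.67-fold lower, without overlap between groups (exact two-sided permutation p = 0.1 for both). Epcam had not passed, and no marker that fell was used as such a reference. Epcam was among the least lowered markers. The 7 markers that fell had differences of -1.88 to -1.07, a range that leaves out markers short of the threshold. The other 7 ran from -0.89 (Foxa1) to -0.13 (Gata3). The differences of Cdh1 (-1.50) and Perp (-1.13) lie inside the first range, and that of Jup (-0.43) inside the second. The part that the amount of epithelium has in the fall of Cdh1, Perp and Jup was not tested.

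Few markers of other tissues passed. None of 9 smooth muscle, 10 mesenchymal, 7 endothelial, 11 striated muscle, 8 placental, 6 intestinal, 7 nephric duct, 8 blood, 8 housekeeping and 5 neuronal or glial genes passed, and of 7 mesothelial genes Msln fell and Wt1 rose. Smooth muscle markers were lower in all 9 cases, with a median of -0.256. Their summed signal on the log2 scale ran from 15.58 to 15.71 on the Klf5-deleted arrays and from 15.77 to 15.96 on the control arrays. The housekeeping mean was also lower on the Klf5-deleted arrays (12.54 to 12.58) than on the control arrays (12.59 to 12.65). So was the array median over all genes (8.43 to 8.45 against 8.46 to 8.50). Whether such an offset between arrays bears on the smooth muscle values was not tested. The summed placental signal ran from 9.99 to 12.44 on the Klf5-deleted arrays and from 10.13 to 14.53 on the control arrays. The summed signal of the striated muscle list, most of it skeletal muscle genes, ran from 13.9 to 14.7 on the Klf5-deleted arrays and from 13.9 to 14.3 on the control arrays. The part of these tissues in the values of the 10 genes was not tested.

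The genes whose pattern over the 6 arrays came nearest to the mean pattern of the 10 were Tmcc3, Evpl, Cdcp1, Grb7 and Tmem125. Likeness was the root mean square distance between values centred on each gene's mean, and it lay between 0.0475 and 0.0517 on the log2 scale for these 5. The mean pattern of the 10 stood at -0.31, -0.25 and -0.26 on the Klf5-deleted arrays and at 0.23, 0.25 and 0.35 on the control arrays. The 5 genes fell by 0.48 to 0.59, a size that follows from choosing them by likeness to this pattern. Evpl is itself a desmosome-associated protein.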

How the data were processed

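RNA of 6 pools of embryonic bladders was measured on Affymetrix Mouse Gene ST arrays. The authors deposited log2 expression values made with RMA, per the submitters' processing notes; the log2 scale was inferred from the values (3.24 to 14.6), and no source used here gives the version or build. Without scanner files, detection above background could not be judged. The number of arrays limits the precision.

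Of 35557 features, 21789 had a single gene symbol in the platform annotation, 1621 several and 12147 none. Where a gene had several features the one with the highest mean was kept (999 genes; none of the 10), leaving 19938 genes, 19856 matched by Entrez identifier to RefSeq GRCm38.p6. Older symbols in the gene lists were updated through that table. Groups were compared in R 4.3.3 with limma 3.58.1 (lmFit, eBayes without trend, two-sided), Klf5-deleted minus control, with Benjamini-Hochberg adjustment over 19938 genes and a threshold of 0.05. The procedure was tested on simulated data. Alternatives were the mean of features, a floor of 7 on the mean log2 value, a trended robust prior, array weights, centring on array medians or on the mean of 8 housekeeping genes, the replicate number as a block, and leaving out each array.

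The 10 genes and the lists were chosen with earlier results of these data known. Named genes were the 10, Klf5, up to 3 falls and 3 rises per list, 16 genes listed by name, defining markers, and the 5 nearest patterns; Krt19, Krt15, Plec and Dst lie outside this rule and were picked with their values in view. No array repeated another: the closest pair, control 1 and control 3, differed 2-fold or more at 41 genes.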

Additional observations from a re-analysis of the deposited data

How the results depend on the processing

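All 10 cadherin and desmosome genes stayed lower in Klf5-deleted bladders in all 13 alternative settings. The number past the threshold, 3 over all arrays, was 2 with either centring (Cdh1 and Perp), 4 with dim genes left out, with the trended robust prior or with array weights (Dsg2 added), and 1 to 3 with 1 array left out. It was 1 (Perp) without control 1, and 3 without control 2, with Dsg2 in place of Jup. Over all genes the count of 395 became 141, 172 and 253 without Klf5-deleted 1, 2 and 3, and 165, 349 and 261 without control 1, 2 and 3. The split of 318 falls and 77 rises became 273 and 116 with arrays centred on medians, and 254 and 139 with centring on housekeeping genes.

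With 1 array left out, the other desmosome and plakin genes kept 2 calls, the adherens junction list had 0 to 2, other cadherins 0 to 1, the hemidesmosome list 0 and the keratins 5. The adherens junction list had 1 call and the hemidesmosome list 0 with either centring, and other cadherins had 0 with dim genes left out, since Cdh9 lies under that floor.

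With the replicate block, 110 genes passed, the members past the threshold were 2 (Cdh1 and Perp), the keratins kept 4 calls, and the other 4 lists had 0. The numbers were not taken to pair the arrays: deviations of same-numbered arrays correlated across genes at 0.0092, 0.0313 and 0.0787, although 5 of the 6 arrays, all but Klf5-deleted 1, correlated best with the array of their own number.

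Some small differences changed sign, none of them called: Ctnnb1 was -0.0030 with array weights and -0.0150 without Klf5-deleted 2, Ctnna1 0.0268 with median centring, 0.0474 with housekeeping centring and 0.0014 without Klf5-deleted 3, Ctnnd1 -0.0145 without control 2, Dsc3 -0.0155 without Klf5-deleted 3 and -0.0808 without control 3, Cdh16 -0.0467 without Klf5-deleted 2, and Krt5 0.3119 without control 2. With 1 array left out, the differences ran from -0.0150 to 0.0390 for Ctnnb1, from -0.0283 to 0.0014 for Ctnna1, from -0.0145 to 0.0892 for Ctnnd1, from -0.0808 to 0.0921 for Dsc3, from -0.0467 to 0.2400 for Cdh16 and from -0.4486 to 0.3119 for Krt5. The causes were not tested.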
